A study of Mus musculus with 96 samples.

Results

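STAT3 binding was mapped in mouse embryonic stem cells (ESCs) labelled Tet.Rybp.Stat3, which carried a DOX-inducible Rybp and Stat3 integration, with and without DOX. The members described here were all 33479 peaks of the STAT3 lists of those cells, 2816 in the DOX- list and 30663 in the DOX+ list, out of 316354 peaks in the 14 peak lists of the series. Every row of either list was a separate interval, and a peak was called shared where it overlapped a peak of the other list by at least 1 bp. The DOX- group (2 libraries, treatment labelled control) and the DOX+ group (2 libraries, treatment labelled DOX) were both of the R1 ESC line and were both grown with LIF at 1000 U per mL. RNA came from cells labelled rTRS with the same integration, in 2 libraries labelled NTC and 2 labelled DOX. The column of the second DOX library (DOX 2) lacks the rTRS prefix that the others carry in the count table, and was matched by its replicate name and its sample's description. R7.15 cells, used for comparison, were Rybp+/+ or, after 4-OHT, Rybp-/-. The libraries of each STAT3 group had been merged before peaks were called, so the lists hold no replicate spread and no test between DOX+ and DOX- binding could be made. Intervals on shares of peaks are 95% Wilson intervals and cover counting error only. The study's methods call merged ChIP replicates biological, and the labels do not say whether they were separate cultures.

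STAT3 is a transcription factor that is phosphorylated by JAK kinases when the cytokine LIF engages its receptor, and it then dimerises, enters the nucleus and binds the palindromic element TTCNNNGAA, most often as TTCCNGGAA. In mouse ESCs this pathway sustains self-renewal, in part through Klf4 and Tfcp2l1, and is restrained by its own target Socs3. RYBP is a subunit of variant Polycomb repressive complex 1 (PRC1), whose catalytic subunit RING1B ubiquitinates histone H2A at CpG-rich promoters of silent developmental and germ line genes.

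A few windows are printed as examples of the elements counted further on, and most peaks of the same gene lists held neither element. Windows around DOX- summits at 3 cytokine-responsive genes are given first, read from the + strand of mm9, with matches to TTCNNNGAA in capitals. The element lay within 40 bp of the DOX- summit in each. From the DOX+ summit of Junb it lay 62 bp away, and at Socs3 it was outside the window around the DOX+ summit.
Junb, chr8:87500389-87500539: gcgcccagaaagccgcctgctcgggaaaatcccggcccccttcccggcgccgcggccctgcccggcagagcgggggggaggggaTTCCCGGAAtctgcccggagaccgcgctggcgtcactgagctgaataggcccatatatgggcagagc
Icam1, chr9:20820251-20820401: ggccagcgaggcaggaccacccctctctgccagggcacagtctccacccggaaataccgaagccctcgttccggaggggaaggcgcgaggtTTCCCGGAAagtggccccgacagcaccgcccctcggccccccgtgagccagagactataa
Socs3, chr11:117830715-117830865: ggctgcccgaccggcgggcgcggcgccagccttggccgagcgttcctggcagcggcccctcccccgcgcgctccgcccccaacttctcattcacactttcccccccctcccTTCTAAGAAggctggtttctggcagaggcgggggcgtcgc
Junb encodes an AP-1 subunit, Icam1 an adhesion molecule and Socs3 a feedback inhibitor of cytokine receptors. The Junb summit lay 2153 bp downstream of the start site, while the DOX- summits of Icam1 and Socs3 stood at -78 and -290 bp relative to the start site. The windows below, around the DOX+ summits of germ cell genes with a DOX+ peak and no DOX- peak, held no TTCNNNGAA in the 201 bp around the summit. They are shown with the E-box CACGTG, an element of many basic helix-loop-helix factors, in capitals.
Sycp2, chr2:178141900-178142050: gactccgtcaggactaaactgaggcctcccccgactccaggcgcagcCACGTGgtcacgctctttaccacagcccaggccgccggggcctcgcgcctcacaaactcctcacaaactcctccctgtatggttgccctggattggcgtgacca
Stk31, chr6:49345434-49345584: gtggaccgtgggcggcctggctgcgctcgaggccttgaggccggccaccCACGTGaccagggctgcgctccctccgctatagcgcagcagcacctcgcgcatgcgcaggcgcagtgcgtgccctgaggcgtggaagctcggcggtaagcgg
Dazl, chr17:50432321-50432471: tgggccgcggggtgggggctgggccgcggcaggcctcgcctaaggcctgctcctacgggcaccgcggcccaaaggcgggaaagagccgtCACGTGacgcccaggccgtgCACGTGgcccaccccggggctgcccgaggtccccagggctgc
Mei1, chr15:81900453-81900603: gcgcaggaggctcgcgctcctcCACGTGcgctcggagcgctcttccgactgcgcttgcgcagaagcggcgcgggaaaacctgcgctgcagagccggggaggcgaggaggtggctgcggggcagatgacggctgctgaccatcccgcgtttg
Sycp2 encodes an axial element protein of meiotic chromosomes, Stk31 a germ cell Tudor-domain protein, Dazl an RNA-binding protein of germ cells and Mei1 a factor for meiotic double-strand breaks. The summits were 152 bp from the start site of Sycp2 and 94 bp upstream of that of Stk31.

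The lists differed in background floor as well as in number of peaks. The lowest background of a list, which MACS2 derives from the number and length of its fragments, was 0.2575 fragments per position in the DOX- list and 2.1267 in the DOX+ list, a ratio of 8.26. The DOX+ list held 10.89-fold more peaks and covered 21130 kb against 1063 kb. Summit height, the number of fragments piled at a summit, was solved from each peak's fold enrichment and p value. It ranged from 4 to 63 in the DOX- list (median 7) and from 8 to 475 in the DOX+ list (median 26), and 89.6% of DOX- peaks were at most 10 fragments high. When heights and backgrounds of the DOX+ list were divided by 8.26, 6439 of its peaks still reached the lowest p value of the DOX- list, 2.29-fold the DOX- number. The names of the peaks hold the words merge and sampled, and the number of reads kept in each list is not given in the sources used here, so the floors describe the lists as called. Depth and the DOX treatment cannot be told apart in the number of peaks.

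Of the 2816 DOX- peaks, 2003 (71.1%, interval 69.4 to 72.8%) overlapped a DOX+ peak, and these corresponded to 1967 DOX+ peaks (6.42% of that list, interval 6.15 to 6.70%). The remaining 28696 DOX+ peaks had no DOX- peak and are called DOX+ only, and 813 DOX- peaks had no DOX+ peak. The overlapping share of DOX- peaks was 44.6% against the scaled DOX+ list, 25.6% against as many DOX+ peaks (those of highest −log10 q) and 18.2% when at least 0.5 of each peak had to be covered. The share of DOX+ peaks moved to 18.8% in the scaled list and 1.67% at that coverage. After scaling of the DOX+ list, 5231 DOX+ only peaks and 1208 shared peaks remained. The chance that a DOX+ peak was also in the DOX- list rose with its scaled height, from 0.12% below 2 fragments to 17.3% at 6 to 8 and 46.4% (32 of 69 peaks, interval 35.1 to 58.0%) at 20 or more. Among the 258 DOX+ peaks whose scaled height was 15 or more, 162 had no DOX- peak. These 258 were picked by their DOX+ height, the scaling rests on the floor ratio, and the cause was not tested. Fold enrichment had medians of 5.95 at the shared DOX- peaks and 5.86 at the shared DOX+ peaks, with the 1 that MACS2 adds to height and background, which weighs more on the DOX- background (median 0.473) than on that of DOX+ (9.92). Without it the medians at the 1967 shared DOX+ peaks were 17.1 for DOX- and 6.41 for DOX+, and the DOX- value was the higher at 1895. A shared peak had to pass the DOX- call on few fragments, so no direction is read from either measure.

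Shared STAT3 peaks were mostly promoter peaks at places with active marks in Rybp+/+ ESCs and RING1B in the DOX+ cells. The mark and WDR5 lists are not of the Tet.Rybp.Stat3 cells, so they do not show the marks under DOX. Of the 1967 shared DOX+ peaks, 89.6% had their summit within 2.5 kb of a transcription start site (TSS), 99.3% overlapped H3K4me3, 78.1% H3K27ac and 87.6% WDR5 of Rybp+/+ ESCs, and 85.2% overlapped RING1B of the DOX+ cells. Their median GC content was 75.1% and their median width 1035 bp, against a width of 513 bp in DOX+ only peaks. The part of width in the overlap shares was not tested. H3K4me3 marks active and poised promoters, H3K27ac marks active promoters and enhancers, and WDR5 is a subunit of the complexes that write H3K4 methylation. DOX+ only peaks were less often at promoters: 46.1% lay near a TSS, 69.2% overlapped H3K4me3, 40.1% H3K27ac, 28.1% WDR5 and 44.5% RING1B. The DOX+ only peaks that passed after scaling were nearer to the shared peaks in most of these marks, with 76.6% at a TSS, 98.7% on H3K4me3 and 94.7% on RING1B. Their H3K27ac share was 47.8% (interval 46.5 to 49.2%), below the 78.1% of shared peaks (interval 76.2 to 79.9%).

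**Figure D1:**
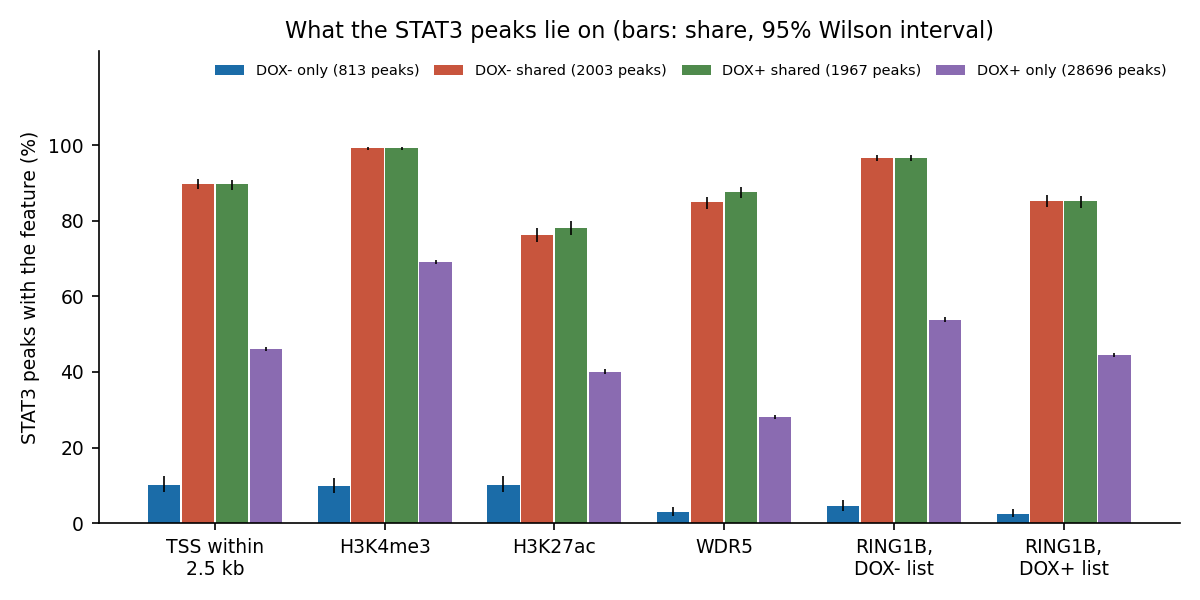
Share of STAT3 peaks (%, y axis) with a TSS within 2.5 kb or overlapping H3K4me3, H3K27ac, WDR5 or RING1B peaks (x axis), for 813 DOX- only, 2003 DOX- shared, 1967 DOX+ shared and 28696 DOX+ only peaks. Bars give the share and error bars the 95% Wilson interval; DOX- only peaks stay at or under 10.2% in every feature, and the shared peaks of both lists are the highest in each.

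The 813 DOX- peaks without a DOX+ peak were of another kind. Only 10.1% lay near a TSS, 51.0% were intergenic and 35.4% intronic, 13.9% overlapped any of these marks and their median GC content was 47.8%. In 62.7% of them the width was the shortest of the list, 273 bp, and their median height was 7 fragments over a local background of 0.282. The 5 with the highest fold enrichment were nearest to Ube1y1, a ubiquitin-activating enzyme gene of the Y chromosome, Slc43a1, an amino acid transporter gene, Mdfic, Pabpc4l and Wdr66. Their fold enrichment ranged from 10.3 to 11.9 and their height from 12 to 14 fragments, and none overlapped any mark, RING1B or R7.15 STAT3 peak.

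From strong to weak DOX+ peaks, RING1B fell away while H3K27ac did not. In the first of 10 groups of equal size by fold enrichment, 93.8% of the peaks overlapped RING1B of the DOX+ cells, 97.1% H3K4me3 and 73.9% lay near a TSS. In the last group the shares were 23.5%, 66.3% and 43.6%. Median peak width went from 1084 bp in the first group to 452 bp in the last. Wider peaks can more easily overlap by 1 bp, and the part of width in these shares was not tested. H3K27ac stood at 42.5% in the first group and 48.1% in the last, with 38.0% as its lowest value between. The share with a DOX- peak fell from 17.4% to 3.16%. Read from the other side, 89.3% of the 12864 RING1B peaks of the DOX+ cells held a DOX+ STAT3 peak, as did 83.3% of the 17021 RING1B peaks of the DOX- cells, 83.0% of WDR5 peaks, 48.0% of H3K4me3 peaks and 21.0% of H3K27ac peaks. The overlap covers presence of peaks in separate populations of cells and says nothing of binding to the same molecule.

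**Figure D2:**
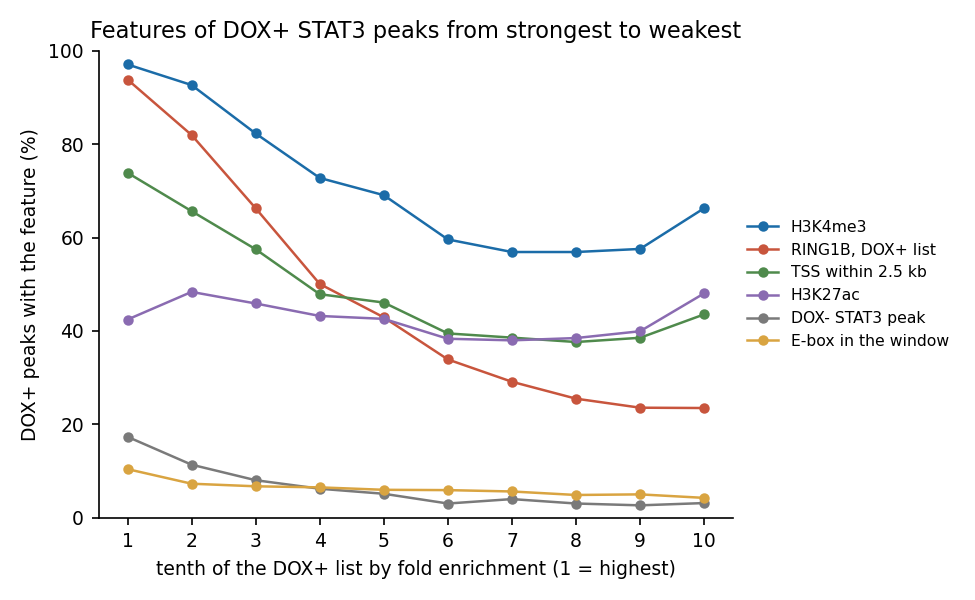
Share of DOX+ STAT3 peaks with each feature (%, y axis) in 10 groups of equal size from the highest to the lowest fold enrichment (x axis). The RING1B line drops from 93.8% to 23.5%, while the H3K27ac line stays between 38.0% and 48.4%.

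STAT3 lists of another line, R7.15, gave a comparison without the integration: Rybp+/+ cells with 2363 peaks and Rybp-/- cells with 1917, 1 library each. The Rybp-/- cells had received 4-OHT at 5 µM for 4 days, so the loss of Rybp and the agent cannot be told apart there. DOX+ peaks were found at 78.5% of the Rybp+/+ peaks and 79.3% of the Rybp-/- peaks, and DOX- peaks at 20.2% and 22.9%. In all, 209 DOX+ peaks were also in the DOX- list and in both R7.15 lists, and 26594 were in none of these 3.

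The STAT element was uncommon in all classes of peak, but more common in the peaks found by every list. In the 201 bp around the summit, searched on both strands, TTCNNNGAA occurred in 3.85% of DOX+ only, 3.41% of shared DOX+ and 5.54% of DOX- only peaks, against 7.46% of all 201 bp windows of the genome and 4.71% of windows centred on TSSs. The strict form TTCCNGGAA, which is contained in TTCNNNGAA, occurred in 0.948% of DOX+ only peaks and 1.93% of shared DOX+ peaks (interval 1.41 to 2.64%), against 0.505% of genome windows and 0.790% of TSS windows. It was in 5.74% of the 209 peaks of all 4 lists, 12 peaks in number, and in 0.944% of the 26594 peaks found in the DOX+ list alone. Of the 17 peaks in all 4 lists that held TTCNNNGAA, 9 had it within 25 bp of the summit, against 372 of the 1171 DOX+ peaks with the element in all (31.8%).

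Among the tallest DOX+ peaks the strict STAT element was more frequent in shared than in DOX+ only peaks, and the E-box and E2F-type shares had overlapping intervals. Of the 96 shared peaks with a scaled height of 15 or more, 14 held TTCCNGGAA (14.6%, interval 8.89 to 23.0%), and of the 162 DOX+ only peaks of that height 1 did (0.617%, interval 0.109 to 3.41%). The E-box CACGTG was in 27.1% of the former (interval 19.2 to 36.7%) and 22.2% of the latter (interval 16.5 to 29.2%), against 6.29% of all DOX+ only peaks, 5.22% of TSS windows and 1.96% of genome windows. The E2F-type element GCGGGAA, on either strand, was in 9.38% of the tall shared peaks (interval 5.01 to 16.9%), 15.4% of the tall DOX+ only peaks (interval 10.7 to 21.8%) and 4.32% of TSS windows. On chromatin these tall groups had intervals that did not overlap in 3 marks. H3K27ac was on 81.3% of shared peaks and 40.7% of DOX+ only peaks (intervals 72.3 to 87.8% and 33.5 to 48.4%), and WDR5 on 92.7% and 75.9% (85.7 to 96.4% and 68.8 to 81.9%). RING1B of the DOX+ cells was the lower in shared peaks, at 86.5% against 98.1% (78.2 to 91.9% and 94.7 to 99.4%). H3K4me3, at 100% and 98.8%, and RING1B of the DOX- cells, at 97.9% and 98.1%, had overlapping intervals.

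The 10 DOX+ only peaks of highest fold enrichment were all promoter peaks. Germ cell genes among them were picked after the peaks were seen and without a fixed list. Gm4969 is not on the germ cell list used further on. The share of such genes over all DOX+ only peaks was not counted, so no enrichment is read from these 10. By that reading, 7 of their genes act in germ cells. They were Sycp1 and Sycp2, structural proteins of the synaptonemal complex, Tdrkh and Mov10l1 of the piRNA pathway, Spata22 of meiotic recombination, Gm4969, named Bhmg1 with the synonym Meiosin in RefSeq, and Stk31. The other three were at Hdac2, a histone deacetylase, Trim44 and Zfp280d. Fold enrichment was 38.4 at Sycp1, with 228 fragments at the summit, 37.0 at Hdac2 with 318 fragments and 36.7 at Tdrkh with 166. The lowest of the 10 was Stk31 at 29.9. Scaled to the DOX- list the 10 summits stood at 16.2 to 46.5 fragments. These peaks were picked for high DOX+ enrichment and for having no DOX- peak, so neither is a separate result. All 10 overlapped H3K4me3 and RING1B in both RING1B lists, 4 overlapped H3K27ac, 1 was in the R7.15 Rybp+/+ list, none held TTCNNNGAA and 4 held the E-box.

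The 10 shared DOX+ peaks of highest fold enrichment were led by Stat3 itself. Fold enrichments of the lists are given side by side and not compared, since they carry the added 1 on unlike backgrounds. At the Stat3 promoter (220 bp upstream of the TSS, chr11:100800564-100801450) fold enrichment was 52.9 in DOX+ and 27.3 in DOX-, and the peak was in both R7.15 lists. Its window held no TTCNNNGAA and no DOX+ RING1B peak. At Junb fold enrichment was 40.7 and 34.8. Lower in the set were Klhl35, a Kelch-like gene, with 31.4 and 5.6 and Cops7a, a COP9 signalosome subunit, with 30.7 and 6.2. Then came Boll, a germ cell RNA-binding protein, with 25.1 and 7.3 and Cpeb1, a regulator of polyadenylation, with 24.1 and 6.8. An intergenic peak 37288 bp from Spry2, an inhibitor of receptor tyrosine kinase signalling, and the fucosyltransferase gene Sec1 closed the set. Of the 10 peaks, 7 were in the R7.15 Rybp+/+ list, 7 overlapped H3K27ac and 8 RING1B of the DOX+ cells. No peak of either list had its summit in an exon of Stat3 or Rybp. Rybp had a DOX+ only promoter peak of 7.23-fold enrichment.

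At several cytokine targets the scaled DOX+ height lay within the counting error of the DOX- height, whereas at other shared peaks it lay above it. Heights above the interval rest on the division by the floor ratio and on peaks picked by their DOX+ height, and height over local background, given earlier, was mostly the higher in DOX-, so no direction of binding is read from them. At Junb the DOX+ summit of 475 fragments scaled to 57.5, against 63 in DOX- (exact 95% Poisson interval 48.4 to 80.6, counting error of the DOX- height only). At Socs3 188 fragments scaled to 22.8, against 15 (8.4 to 24.7), and at Icam1 163 scaled to 19.7, against 16 (9.1 to 26.0). Jak3, a cytokine receptor kinase, and Irf1, an interferon regulatory factor chosen after its values were seen, likewise lay within the interval, at 24.5 against 19 and 25.8 against 20. Socs2 at 24.9 against 15 was just above its upper bound of 24.7. Stat3 at 48.7 against 35 was at the upper bound of its interval, 48.7. Boll was above its interval, at 47.0 against 12 (6.2 to 21.0), as were Klhl35 at 30.6 against 6 (2.2 to 13.1) and Sec1 at 30.4 against 9 (4.1 to 17.1). Over the 96 tall shared peaks the ratio of DOX- height to scaled DOX+ height had a median of 0.56 and ran from 0.20 to 1.10. It was 0.82 in the 14 with TTCCNGGAA, of which 12 were within the interval, and 0.53 in the other 82, of which 36 were within it. The ratio was 0.71 in the 40 peaks that were also in both R7.15 lists and 0.47 in the 32 that were in neither. The floor also depends on fragment length. With each floor divided by the shortest peak width of its list, a ratio of 7.27 that was chosen after seeing the data, 36 of the 96 peaks were within the interval in place of 48, 11 of the 14 with TTCCNGGAA and 25 of the other 82. Junb at 65.3, Icam1 at 22.4, Jak3 at 27.8 and Irf1 at 29.3 were then within their intervals, while Socs3 at 25.8 was above its upper bound of 24.7, as was Socs2 at 28.3, and Stat3 at 55.3 was above its bound of 48.7.

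**Figure D3:**
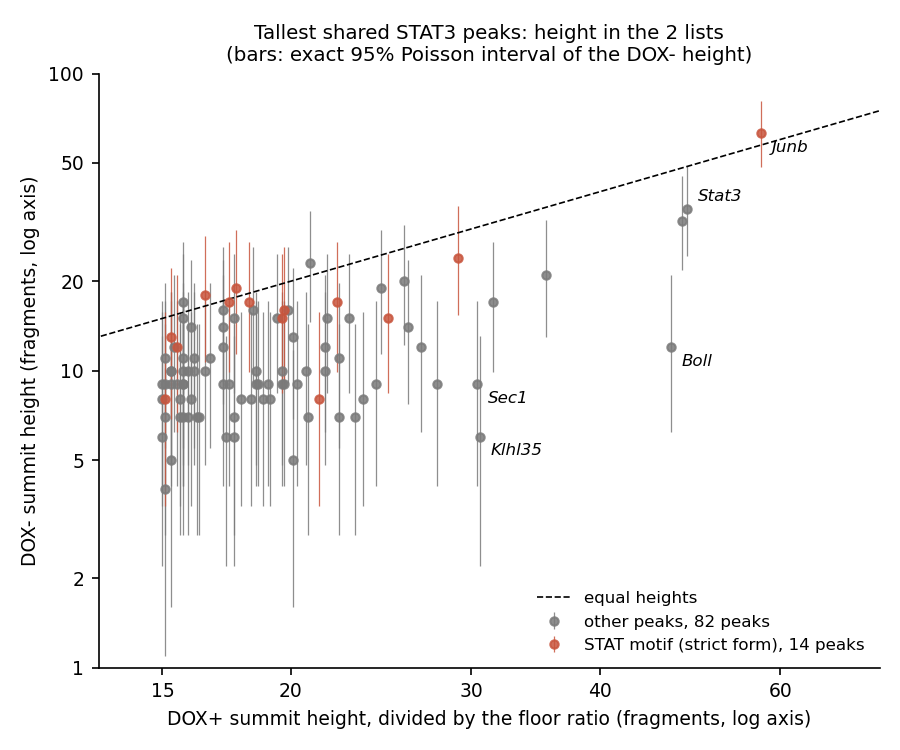
DOX- summit height (fragments, log y axis) against DOX+ summit height divided by the floor ratio (fragments, log x axis) at the 96 shared peaks with a scaled height of 15 or more. Points are peaks, bars the exact 95% Poisson interval of the DOX- height, and the dashed line marks equal heights; Junb lies above the line at 63 against 57.5, and Boll and Klhl35 lie far under it at 12 against 47.0 and 6 against 30.6.

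Genes of 6 lists were then read for a STAT3 peak within 2.5 kb of a TSS. Over all 22372 protein-coding genes, 12642 (56.5%) had a DOX+ peak, with a median fold enrichment of 5.22, and 1976 (8.83%) a DOX- peak. Of 27 known LIF-STAT3 targets, 26 had a DOX+ peak, 10 had a DOX- peak and the median DOX+ fold enrichment was 7.08. The exception was Pramel7, a gene of naive ESCs. The 10 with a DOX- peak were Socs1, Socs2, Socs3, Pim1, Pim3, Junb, Icam1, Sbno2, Mcl1 and Klf2. Klf4, Klf5, Tfcp2l1, Gbx2 and Tbx3, which maintain naive pluripotency, had DOX+ only peaks of 5.91, 2.78, 2.95, 7.32 and 6.85-fold enrichment. The tallest relative enrichments among targets without a DOX- peak were at the immediate early genes Zfp36 (16.2), Ier3 (13.2) and Fos (12.9).

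Among 22 genes of the LIF receptor and JAK-STAT machinery, 19 had a DOX+ peak and 7 a DOX- peak. The receptor gene Lifr had peaks in both lists (8.26 in DOX+, 5.21 in DOX-) and its partner Il6st in neither. Jak1, Jak2 and Jak3 had peaks in both lists, and Tyk2 and Stat4 in neither. Of 16 pluripotency factors, 15 had a DOX+ peak of modest enrichment (median 5.32), from 2.13 at Zfp42 to 7.32 at Fgf5, a ligand of the primed epiblast. Pou5f1 stood at 3.61, Nanog at 3.31 and Sox2 at 5.32. The only DOX- peak of this list was at Tcf3, which in this annotation is an E protein gene. Of 19 genes of PRC1 and its partners, 18 had a DOX+ peak, and the tallest, at Rnf2, the gene of RING1B, scaled to 16.1 fragments at a fold enrichment of 5.27.

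Polycomb-marked developmental genes, such as Hox genes and lineage transcription factors, had a DOX+ peak at all 27 that were annotated, each with RING1B, and 5 had a DOX- peak. Their median fold enrichment was 8.37. Germ cell and meiosis genes, a list of 60 drawn up after the strongest peaks had been seen, had the highest median of the 6 lists, 11.84, which is therefore not independent evidence. Of the 59 annotated, 48 had a DOX+ peak and 1, Boll, a DOX- peak. Of the 48, 47 carried RING1B, 10 the E-box and 24 a scaled height of 15 or more. Over all 12642 genes with a DOX+ peak these counts were 8693, 816 and 226. As the list was drawn up after the strongest peaks had been seen, its counts are not independent evidence either. High values were seen at Ddx4, an RNA helicase of germ cells (28.3-fold, 308 fragments), Tex12 (28.6) and Mael (23.7). Genes of late spermatogenesis, Prm1, Prm2, Tnp1, Acr, Pgk2 and Ldhc, had no peak, as did Stra8, Rec8, Nanos2, Nanos3 and Piwil4.

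**Figure D4:**
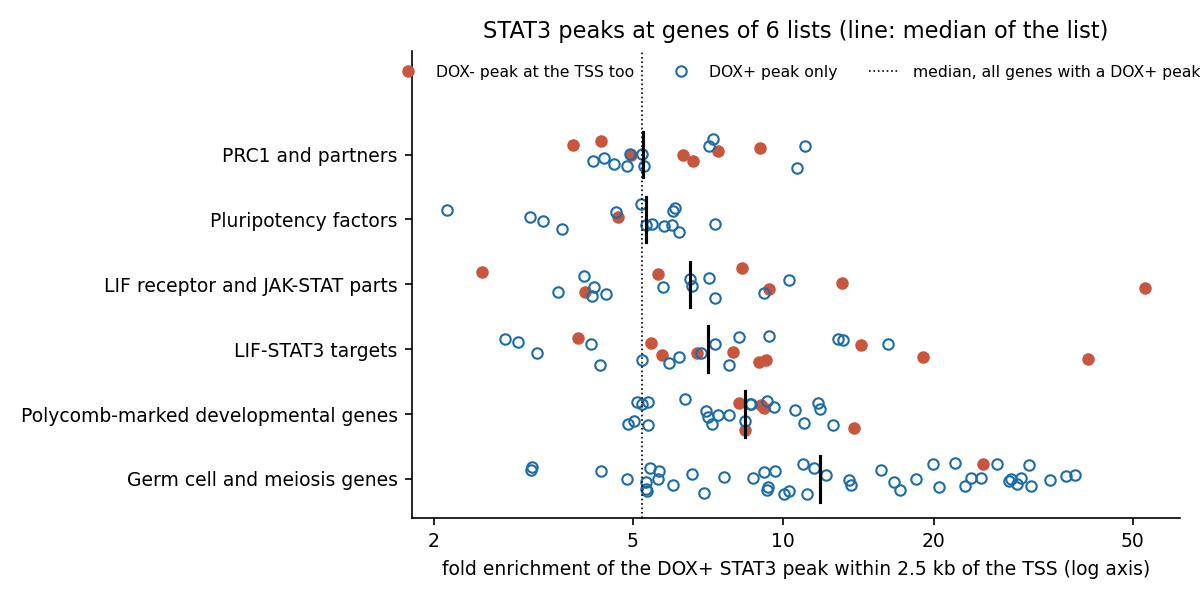
Fold enrichment of the DOX+ STAT3 peak within 2.5 kb of the TSS (log x axis) for the genes of 6 lists (y axis), filled where the gene had a DOX- peak too. Short lines mark list medians, from 11.84 in germ cell genes to 5.24 in PRC1 genes, and the dotted line the median of 5.22 over all genes with a DOX+ peak.

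RNA of rTRS cells was compared between the libraries labelled DOX and NTC, at 50312058 to 53779354 counts on genes per library. With edgeR's quasi-likelihood test at an adjusted p under 0.05, 43.4% of 16291 genes were called, 23.0% higher and 20.4% lower in DOX. The integrated genes were read first. Stat3 was at 158.8 and 172.4 counts scaled to library size (CPM) in NTC and 191.0 and 188.5 in DOX, so the groups did not overlap (log2 fold change 0.20, SE 0.06, edgeR adjusted p = 0.0259). This call was lost on leaving out DOX 1, DOX 2 or NTC 1. Rybp was at 113.4 and 110.5 CPM in NTC and 101.8 and 99.77 in DOX (log2 fold change -0.15, adjusted p = 0.0762). The counts therefore did not show a higher Rybp RNA in the libraries labelled DOX. The p-values measure the spread between these libraries, which may be technical.

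Markers of cell state moved with the DOX label. The 10 ESC markers summed to 7150 and 6890 CPM in NTC and 4530 and 4290 in DOX, and all 10 were detected in every library. The 5 mesoderm markers summed to 14.4 and 12.2 in NTC and 62.9 and 57.2 in DOX, a rise carried by T and Eomes. Mixl1 went from 0.9392 and 0.7632 to 1.425 and 1.021, Mesp1 from 0.7044 and 0.3537 to 0.1926 and 0.3142, and Kdr from 0.3522 and 0.3351 to 0.2889 and 0. The 5 trophectoderm markers summed to 196 and 193 against 648 and 619, a rise carried by Krt8. Cdx2 and Hand1 were higher in DOX as well. Tfap2c went from 111.5 and 116.6 to 107.1 and 106.4, and Elf5 was at 0.1571 CPM or less in all libraries. The 6 primitive endoderm markers summed to 9.41 and 7.78 against 21.3 and 20.7, a rise carried by Dab2, while Sox7 went from 0.8805 and 0.9493 to 0.05777 and 0. The 4 neural markers counted summed to 147 and 135 against 83.2 and 76.3, a fall carried by Tubb3, while Nes went from 17.85 and 14.15 to 47.95 and 45.6. The 6 feeder markers summed to 22.5 to 24.1 against 21.6 to 27.3, with Lum at 0 in all. The part of these shifts in the results by STAT3 peak was not tested. In bulk RNA, fewer cells of a type and less RNA per cell cannot be told apart.

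Genes with a STAT3 peak at the TSS were called higher more often than genes without one. Of 1850 tested genes with a DOX- peak 32.4% were called higher and 19.9% lower, of 9417 with a DOX+ peak only 27.2% and 20.8%, and of 3371 with neither 14.4% and 24.7%, against 24.9% and 21.6% of all 14638 protein-coding genes tested. The groups also differed in level, with median NTC values of 37.2, 20.6 and 7.23 CPM. Median log2 fold changes were 0.07, 0.05 and -0.10. Within the DOX+ only group, the 2025 genes whose peak overlapped RING1B without H3K27ac had 30.6% called higher and 14.4% lower (median log2 fold change 0.25). The 2820 genes with H3K27ac without RING1B had 20.1% and 26.7% (median -0.04). The 4109 with both had 31.0% and 20.5% (median 0.06), and the 463 with neither 21.8% and 16.6% (median 0.08). These are counts over genes, and no test of the difference was made.

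LIF-STAT3 targets were called lower more often than higher: 16 of 26 tested fell, 8 rose and 2 were not called, with a median log2 fold change of -0.42, against 20.4% and 23.0% of all genes. Socs3 fell, from 283.5 and 249.9 CPM in NTC to 84.46 and 81.14 in DOX (log2 fold change -1.69, SE 0.07, edgeR adjusted p = 2.6e-09). Klf4 fell, from 203.0 and 189.3 to 95.65 and 84.59 CPM (log2 fold change -1.12, edgeR adjusted p = 1.13e-07). Fos rose, from 5.811 and 6.217 to 32.62 and 35.68 CPM (log2 fold change 2.51, edgeR adjusted p = 3.49e-09), and with it Zfp36, Gadd45g, Socs1, Rgs16, Junb, Pim1 and Sbno2. In each of these examples the NTC and DOX libraries did not overlap. Among the 10 targets with a DOX- peak the directions were mixed, with Socs1, Junb, Pim1 and Sbno2 higher, Socs3, Socs2, Icam1, Pim3 and Klf2 lower, and Mcl1 not called.

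**Figure D5:**
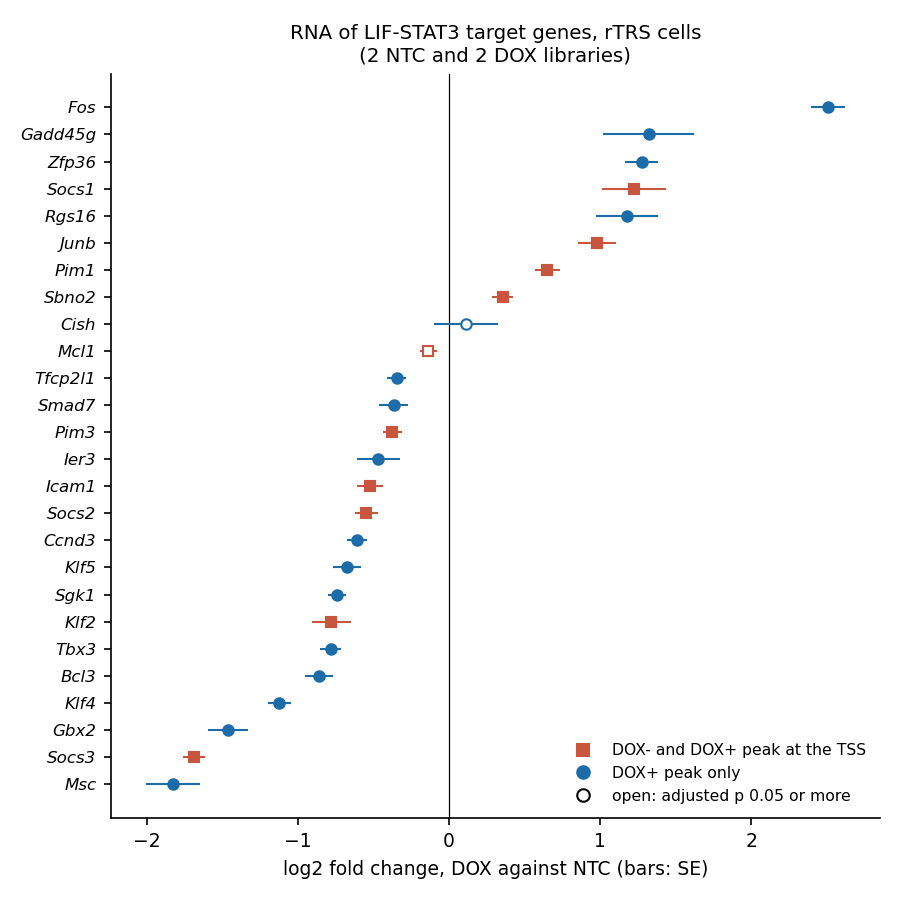
Log2 fold change of RNA, DOX against NTC in rTRS cells (x axis, bars: SE), for the 26 tested LIF-STAT3 targets (y axis), by STAT3 peak at the TSS. Open symbols are the 2 genes with an adjusted p of 0.05 or more; of the filled symbols 8 lie to the right of 0 up to Fos at 2.51, and 16 to the left down to Msc at -1.83.

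The lists that follow are to be read against the 23.0% of all tested genes called higher and the 20.4% called lower. Of the 22 JAK-STAT genes 9 rose, 4 fell and 9 were not called. Lifr fell, from 73.75 and 83.19 CPM in NTC to 28.23 and 31.14 in DOX (log2 fold change -1.40, edgeR adjusted p = 6.72e-08), and Lif, Jak1, Jak2, Stat2, Stat5a and Stat5b were among those that rose. Of the pluripotency factors 10 of 16 fell, including Pou5f1, Sox2, Esrrb, Zfp42 and Tdgf1, while Nanog was not called at 673.1 and 677.7 against 633.5 and 658.3 CPM. Of the 19 PRC1 genes 7 rose, 2 fell and 10 were not called. Of the 15 developmental genes tested 5 rose and 3 fell, which is near those shares, and T, the mesoderm factor Brachyury, rose from 1.448 and 1.564 to 31.20 and 29.93 CPM. Of the 52 germ cell genes tested, with or without a DOX+ peak, 28 fell, 4 rose and 20 were not called (median log2 fold change -0.59). Dazl fell, from 8.531 and 8.898 to 4.795 and 4.615 CPM (log2 fold change -0.89, edgeR adjusted p = 0.000419), while Ddx4 was not called at 40.62 and 41.83 against 42.31 and 44.40.

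Of genes with a DOX+ peak and a mean of 5 CPM or more, the largest rises included Fgf8 and Fgf5, ligands of the FGF family, Thsd7a, Gbp7, an interferon-induced GTPase, Csf1, a cytokine, Arl4c, a small GTPase, and Mmp9, a metalloprotease. The log2 fold changes of these 7 genes ran from 4.41 to 5.50, and Fgf8 went from 0.3913 and 0.1489 to 12.69 and 9.17 CPM. All 7 had DOX+ only peaks of 4.17 to 13.3-fold enrichment that overlapped RING1B and H3K4me3, 1 of them (Arl4c) overlapped H3K27ac, and none held TTCNNNGAA. Over all 12642 genes with a DOX+ peak, 8693 had RING1B and only 336 had TTCNNNGAA, so its absence from 7 peaks is not read as a trait. The largest falls were of Inhbb, an inhibin subunit, Spry4, an inhibitor of receptor tyrosine kinase signalling, 2410004A20Rik, Tgm3, Myo1g, Enox1, Mras and Aldh1l2, with log2 fold changes from -2.11 to -3.30. Inhbb, from 89.27 and 84.04 to 8.897 and 8.719 CPM, was the only one of these 8 with a DOX- peak as well, and 4 of the 8 peaks overlapped RING1B of the DOX+ cells.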

How the data were processed

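STAT3, RING1B, H3K27ac, H3K4me3 and WDR5 were measured by ChIP-seq and RNA by sequencing. The authors deposited MACS2 peak lists on mm9, with fold enrichment (a ratio over local background) and −log10 p and q values, from merged replicates, and HTSeq counts per gene (deposited raw). The submitters' processing notes also list Trim Galore and STAR. Of the deposited counts, 24.9 to 26.5% lay on no gene and were left out of library sizes and tests. The authors' read numbers per ChIP library were not used here.

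Peaks were intersected at 1 bp or more. Because MACS2 adds a pseudocount of 1 to height and background, fold enrichment and p value together gave a whole-number height at all peaks (largest residual 0.000715 in −log10 p), the only solution at 99.2% of DOX- and 99.97% of DOX+ peaks, tested on simulated data. TSSs were of protein-coding transcripts of GENCODE vM1 (NCBIM37), and sequences and motifs came from that genome. Counts were tested with edgeR 4.0.16 (TMM, filterByExpr, quasi-likelihood, Benjamini-Hochberg over all genes tested, R 4.3.3), with DESeq2 1.42.0 as an alternative, and the test was checked on simulated data. Peak tables were made with Python 3.11.15. Members and gene lists were chosen with earlier results of these data known. Named were list members, the 10 DOX+ only, 10 shared and 5 DOX- only peaks of highest fold enrichment, and the 8 largest rises and falls among called genes with a DOX+ peak and a mean of 5 CPM. Genes shown to illustrate the height comparison were chosen after their values were seen where stated. Some named items of this rule are not reported here.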

Additional observations from a re-analysis of the deposited data

How the results depend on the processing

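The scaling to the DOX- floor was chosen after seeing the data and left 6439 DOX+ peaks. It moved the share of DOX- peaks with a DOX+ peak to 44.6% and of DOX+ peaks with a DOX- peak to 18.8%. In DOX+ only peaks it moved TSS to 76.6%, H3K27ac to 47.8%, H3K4me3 to 98.7%, RING1B to 94.7% and TTCNNNGAA to 2.79%, and the called genes with a DOX+ only peak to 1716. At −log10 q of 5 or more, 1165 DOX- peaks were left, the overlap shares were 67.1% and 3.47%, and the DOX+ only shares 54.8% (TSS), 45.2% (H3K27ac), 80.4% (H3K4me3), 56.5% (RING1B) and 3.60% (TTCNNNGAA). Overlap was 18.2% and 1.67% when at least 0.5 of each peak had to be covered, and 44.6% and 4.10% with summits within 200 bp. With as many DOX+ as DOX- peaks it was 25.6% (highest −log10 q) and 18.4% (highest fold). TSS shares were 39.1% within 1 kb and 52.8% within 5 kb. With at least 0.5 of the STAT3 peak covered, H3K27ac was at 35.2% and H3K4me3 at 65.7%, and RING1B of the DOX- list was at 53.9%. The motif share was 2.13% within 50 bp and 0.948% for TTCCNGGAA. At an absolute log2 fold change of 1 or more, 1953 genes were called. The cause of these moves was not tested beyond the fewer peaks or genes each setting keeps.

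Leaving out 1 RNA library gave 6036 to 6587 called genes (7070 with all 4) and 3895 to 4199 with a DOX+ only peak (4523), the lone library being assumed to vary like the other group. A replicate block gave 8559 and 5467, but the replicate numbers share nothing in the labels and the deviations of same-numbered libraries correlated at 0.0688 over genes, with only 2 pairs. Of 98 calls in the gene lists, 5 were lost with DESeq2, none with the replicate block and 7 to 11 without 1 library, and none reversed. Heights of 4 to 10 fragments limit what the DOX- list could detect.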
